A study of Glycine max with 15 samples.

Results

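The transcriptome of soybean seedlings after 8 h of high brassinolide was set against that after 1 h, by the sheet names of the deposited tables. The genes compared are 34518 of the 54175 gene IDs in those tables, namely those at 1 FPKM or more in any of 4 columns, the treated and the control column of the table named Pcz-BL-8h and of the table named Pcz-BL-1h. FPKM is the number of sequenced fragments scaled for transcript length and library size. Whole seedlings of the Glycine max cultivar Williams 82 were used, 10 days old and at the first vegetative stage. All groups compared here had the same age and background, and the labels leave unsaid whether a group's 3 libraries are separate plants, so the errors below may be technical.

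In the group Pcz-BL-8h the plants received 5 mM propiconazole (Pcz), and 1 mM brassinolide (BL) for 8 h. The group Pcz-BL-1h received 5 mM Pcz and afterwards 1 mM BL for 1 h. Control plants were mock treated and are the common comparison of both tables. The name of the 8 h group does not state the order of the agents, while the treatment protocol describes high BL as added afterwards. No group with Pcz and a mock addition for 1 h or 8 h was analysed here, so time after BL cannot be told apart from time after the addition itself. Doses are given as the labels write them, and no other source for their unit was used.

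Which treatment each table holds is uncertain. The table on the sheet named Pcz-BL-8h has a treated column headed Pcz-BL, and the table on the sheet named Pcz-BL-1h has one headed Pcz-BL-8h. The sheet named Pcz-BL, taken here as low BL, has one headed Pcz-BL-1h. By column header it is therefore the 1 h table, and it serves as such in the contrast by column header. Tables are called by sheet name here, because the sample labels cite those sheets. The short lists in the deposited workbook of selected genes carry the same fold changes under the same sheet names, with 3981 genes for Pcz-BL-8h and 2915 for Pcz-BL-1h. If the column headers were right, the contrast below would compare low BL with high BL for 8 h. Every direction below depends on this choice, and the contrast by column header is given beside the main count.

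Brassinosteroids are steroid hormones that plants need for cell elongation, vascular development and responses to light. In Arabidopsis a receptor kinase at the cell surface, BRI1, binds the hormone and, through an inhibited kinase, BIN2, lets transcription factors of the BZR1 and BES1 family act on their target genes. Part of this response is feedback, in which the hormone lowers the enzymes that make it. Propiconazole blocks a cytochrome P450 step of that synthesis, so that added BL acts on plants short of their own hormone. The files do not pair the gene IDs with names, and 0 of the 54175 IDs matched the gene table used here. Genes are therefore described in groups set by level, span and course, and only the 2 IDs with the highest and the 2 with the lowest difference are given.

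A group's libraries were pooled by the authors into 1 FPKM in each table, so values per library are not given and the depth is unknown. For every gene the log2 fold change against control was computed in each table as log2((treated FPKM + 1)/(control FPKM + 1)), and the value for Pcz-BL-1h was subtracted from that for Pcz-BL-8h. Added to each FPKM, the 1 understates the change of genes at low levels. Both tables use the control libraries, and their control columns differed by an almost constant factor. The median ratio of control in the Pcz-BL-8h table to control in the Pcz-BL-1h table was 0.826, with an SD of 0.00854 on the log2 scale. Apart from that factor, control therefore nearly cancels from the difference of the deposited fold changes. With 1 added to each FPKM, the cancelling is incomplete where the control level is low.

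Higher and lower genes nearly balanced in both tables. Over the 34518 genes the median log2 fold change was -0.06 in Pcz-BL-8h and -0.06 in Pcz-BL-1h, and the median difference was -0.05. The quartiles of the difference were -0.61 and 0.50. The median absolute fold change was 0.632 in Pcz-BL-8h and 0.475 in Pcz-BL-1h, while the median standard error, from the authors' test statistics, was 0.496 in Pcz-BL-8h and 0.359 in Pcz-BL-1h. The part of these errors in the wider fold changes was not tested. A difference of at least 2-fold was found in 3268 genes toward higher (9.47%) and 4415 toward lower (12.8%) in Pcz-BL-8h. At 4-fold these counts were 466 and 679, at 8-fold 71 and 175, and at 16-fold 12 and 50. With the treated FPKM divided directly, without regard to the scale of the tables, the median log2 ratio was -0.26 and the 2-fold split was 2039 higher and 6295 lower. Scaled by the control columns, the split returned to 3448 higher and 4738 lower.

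The majority of lower genes past 2-fold depended on genes of low level. With 5 FPKM in place of 1 added to each value, 1716 genes were higher and 931 lower. Among genes at 5 FPKM or more in a column, 2869 were higher and 2699 lower. Near the limit of 1 FPKM, 559 genes whose highest column lay between 1 and 1.1 FPKM had a median difference of -0.21. Just below it, 562 genes between 0.9 and 1 FPKM had a median of -0.25 and were left out.

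A test of the difference called 2585 genes (7.93%). It was a two-sided z test on the difference of the 2 log2 fold changes as deposited, with nothing added to the FPKM, with standard errors taken from the authors' test statistics and Benjamini-Hochberg adjustment over 32610 genes. At an adjusted p of 0.05, 896 genes were higher (2.75% of those tested) and 1689 were lower (5.18%) in Pcz-BL-8h. The median standard error of a difference was 0.614. Of the other 1908 genes, 1703 lacked the status OK in a table and 205 were listed at 0 FPKM in a column. Errors of the fold changes were combined as if independent, which ignores the common control libraries. With standard errors taken from the authors' deposited p-values instead, 7969 genes were called, 3550 higher and 4419 lower. The main test reads each deposited test statistic as a z value, and every standard error printed here rests on that reading. The sources can differ. For Glyma02g37990 in Pcz-BL-1h the deposited log2 fold change was -0.571, with a standard error of 0.405 by the test statistic. The authors' q for it was 0.0241. Which source lies closer to the real error was not tested. By column header, the same test called 4619 of 32604 genes (14.2%), 3127 higher and 1492 lower in the table headed Pcz-BL-8h than in the table headed Pcz-BL-1h.

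**Figure D1:**
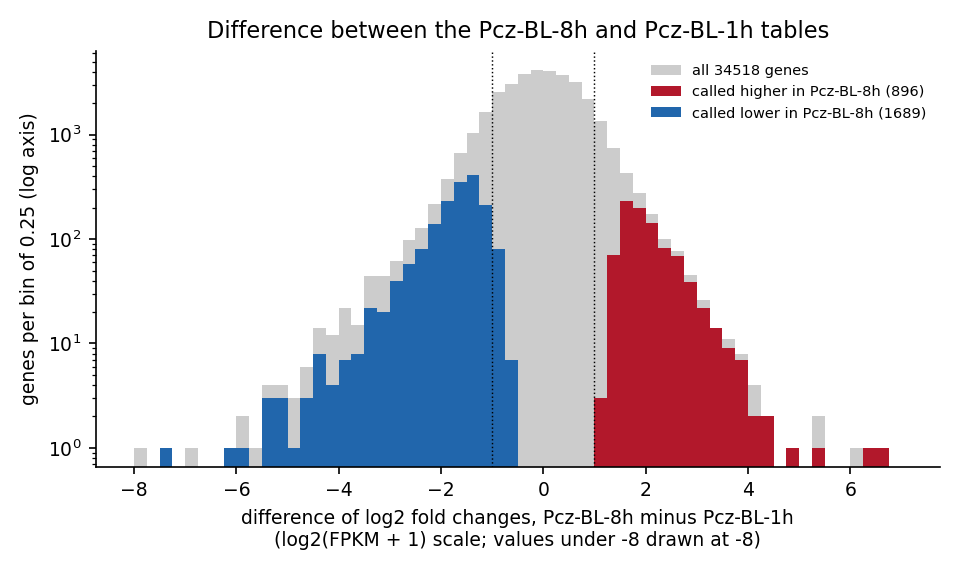
Number of genes, on a log axis, by the difference of log2 fold changes, Pcz-BL-8h minus Pcz-BL-1h. Grey bars hold all 34518 genes, red bars the 896 called higher and blue bars the 1689 called lower in Pcz-BL-8h; dotted lines mark 2-fold, and the lower tail reaches further out than the upper one.

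Glyma18g46580 had the highest difference among called genes with at least 10 FPKM in a treated column. It lies on chromosome 18, from 56303571 to 56304134 in the coordinates of the tables, whose build is not given in the sources used here. At 8 h it stood at 209.9 FPKM, against 18.9 FPKM in control, by the authors' deposited table of that name. Its level at 1 h was 1.62 FPKM, against 22.7 FPKM in control, by the authors' deposited table of that name. It was thus above control at 8 h and below it at 1 h. The difference was 6.58 on the log2(FPKM + 1) scale used for ranking, and 7.28 ± 0.701 (SE) between the fold changes as deposited, past the threshold of the z test.

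Glyma01g34300 (chromosome 1, 46676161 to 46677711) had the next highest difference and was far more abundant. The authors' deposited table for 8 h gives it 2111 FPKM, against 197 FPKM in control. Its level in the authors' deposited table for 1 h was 31.7 FPKM, against 240.2 FPKM in control. The difference was 6.30 on the log2(FPKM + 1) scale and 6.34 ± 0.626 (SE) between the fold changes as deposited, also called by the z test. By sheet name, both genes with the highest differences were also below control without high BL. The authors' deposited table Pcz gives 3.05 FPKM for Glyma18g46580 and 42.2 FPKM for Glyma01g34300, against 25.2 and 228 FPKM in control. Likewise the authors' deposited table Pcz-BL gives 0.603 and 87.3 FPKM, against 22.5 and 239.6 FPKM in control.

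Glyma15g06816 (chromosome 15, 4788303 to 4795751) had the lowest difference. In the authors' deposited table for 8 h it stood at 1.58 FPKM, against 73.7 FPKM in control. The authors' deposited table for 1 h lists 549.9 FPKM, against 88.1 FPKM in control, so this gene was below control at 8 h and above it at 1 h. The difference was -7.49 on the log2(FPKM + 1) scale and -8.19 ± 0.706 (SE) between the fold changes as deposited, which the z test called.

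For Glyma02g37990 (chromosome 2, 43290224 to 43291465), with the next lowest difference, the change against control lay almost wholly at 8 h. It had 0.604 FPKM in the authors' deposited table for 8 h, against 152 FPKM in control. In the authors' deposited table for 1 h it had 122.9 FPKM, against 182.5 FPKM in control (authors' q = 0.0241). The difference was -6.01 on the log2(FPKM + 1) scale and -7.40 ± 0.833 (SE) between the fold changes as deposited, again called by the z test. With Pcz alone, both genes with the lowest differences were below control too, in the authors' deposited table Pcz: Glyma15g06816 at 9.45 FPKM against 88.5, and Glyma02g37990 at 11.7 FPKM against 206.6. With low BL, in the authors' deposited table Pcz-BL, they were not: Glyma02g37990 stood at 349.6 FPKM against 182.1 in control (authors' q = 0.0481), and Glyma15g06816 at 116.6 FPKM against 88.1 (authors' q = 0.341). All 4 values rest on the sheet names. Read by column header, Glyma01g34300 and Glyma15g06816 changed direction, with differences of the deposited fold changes of -1.47, not called by the z test, and 2.24, called by it. Glyma18g46580 (1.42) and Glyma02g37990 (-1.51) kept their direction by column header but were not called.

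**Figure D2:**
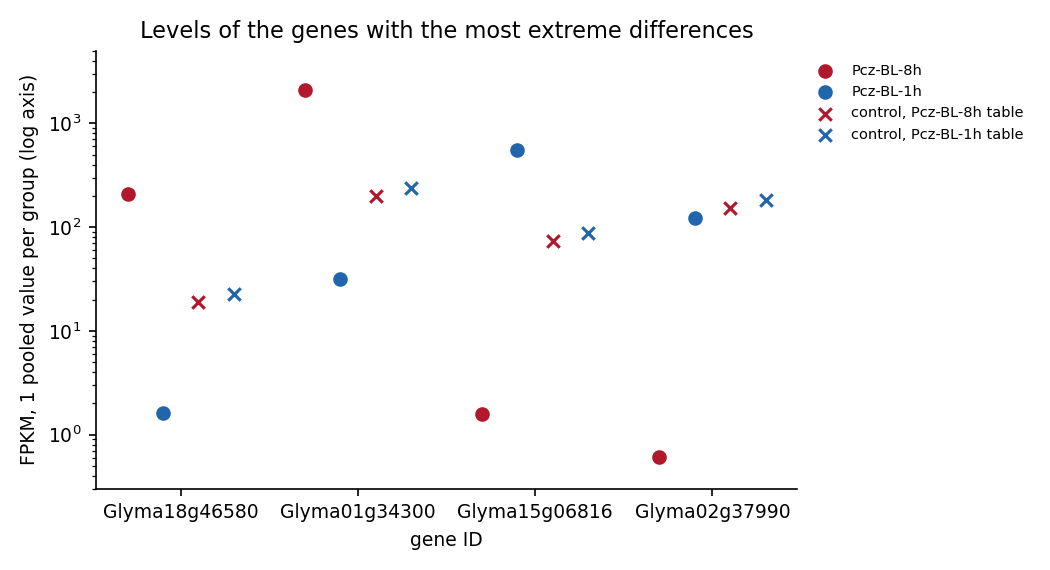
FPKM on a log axis of the 2 genes with the highest and the 2 with the lowest difference. Dots are the pooled treated values, red for Pcz-BL-8h and blue for Pcz-BL-1h, and crosses the control value of each table; the first 3 genes lie on opposite sides of control in the tables.

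The 896 genes called higher were mostly above control at 8 h and near or below it at 1 h. Their median level was 34.6 FPKM in Pcz-BL-8h, against 9.49 FPKM in the control column of that table. In Pcz-BL-1h it was 9.0 FPKM, against 11.5 FPKM in control. By the authors' own test at a q of 0.05, 741 of them were above control in Pcz-BL-8h, 136 were not called and 19 were below. Over all genes with status OK, 26.1% were called above and 31.3% below control in that table. In Pcz-BL-1h, 198 of the 896 were above control, 305 were not called and 393 were below, while over all genes with status OK 25.1% were above and 27.9% below. The genes were chosen by the difference of the same values, so these counts describe the set and test nothing.

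The 1689 genes called lower were less abundant and took the opposite course. They had a median of 1.00 FPKM in Pcz-BL-8h, against 4.32 FPKM in its control. In Pcz-BL-1h the median was 6.88 FPKM, against 5.21 FPKM in control. The authors' test put 31 of them above control in Pcz-BL-8h, did not call 214 and put 1444 below. In Pcz-BL-1h it put 695 above control, did not call 617 and put 377 below. The median of their differences was -1.59, and 1.92 for the genes called higher, both on the log2(FPKM + 1) scale. Between the fold changes as deposited, on which the z test ran, these medians were -2.43 and 2.14, so which set moved further depends on the scale. At least 4-fold differences were reached by 1273 of the 1689 and 548 of the 896 in the deposited fold changes, and by 400 and 394 on the log2(FPKM + 1) scale.

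The genes called higher had medians below control in the tables that, by sheet name, are without high BL. Their median log2 fold change was 1.65 in Pcz-BL-8h, -0.28 in Pcz-BL-1h, -0.54 in the table named Pcz-BL (10 nM BL given together with Pcz) and -0.72 in Pcz. Not all of them were below control there, since the upper quartile was 0.18 in Pcz-BL and 0.20 in Pcz. Over all 34518 genes the medians were -0.12 in Pcz-BL and -0.04 in Pcz. The genes called lower had medians of -1.32 in Pcz-BL-8h, 0.16 in Pcz-BL-1h, 0.09 in Pcz-BL and 0.11 in Pcz. In each set the gap between the Pcz-BL-8h and Pcz-BL-1h medians follows from how the genes were chosen. The genes called lower lay on both sides of control without high BL, with quartiles of -0.33 and 0.51 in Pcz-BL and -0.55 and 0.60 in Pcz. All 4 tables share the control libraries, so these values stand side by side with no test between them.

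**Figure D3:**
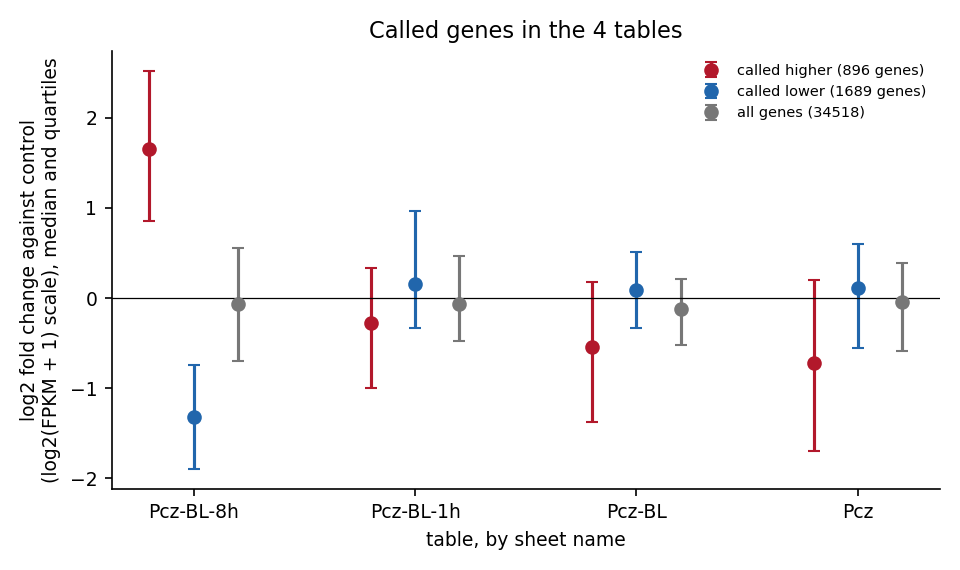
Median and quartiles of the log2 fold change against control in the 4 tables, by sheet name, for the 896 genes called higher, the 1689 called lower and all 34518 genes. The called sets part in Pcz-BL-8h, with medians of 1.65 and -1.32, and lie closer together, with the lower set on top, in the other 3 tables; they were chosen from the first 2 tables.

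Abundant genes were higher at 8 h. Bins were set by control level, which nearly cancels from the difference except where it is low. The median difference was -0.50 for 5188 genes under 1 FPKM, -0.11 for 19129 genes from 1 to 10 FPKM, 0.22 for 9336 genes from 10 to 100 FPKM and 0.73 for 865 genes at 100 FPKM or more. The most abundant of these bins was below control in both tables, less so at 8 h: its median was -0.52 on the log2 scale in Pcz-BL-8h and -1.29 in Pcz-BL-1h. In it 301 genes were at least 2-fold higher and 49 at least 2-fold lower in Pcz-BL-8h. Of the 5188 genes under 1 FPKM in control, 468 reached the limit of 1 FPKM in a control column and the rest only in a treated one, so their position above control follows from that limit. Their medians were 0.41 in Pcz-BL-8h and 0.93 in Pcz-BL-1h, and nothing is read from them or from the difference in this bin. When genes were binned by their mean treated level, which shares its values with the difference, the median at 100 FPKM or more was 0.99.

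Expression was also spread over fewer genes at 8 h. The 100 genes with the highest FPKM held 27.1% of the summed FPKM in Pcz-BL-8h and 17.1% in Pcz-BL-1h, while control held 30.6% and 30.7% in the 2 tables. The top 10 genes held 8.91% in Pcz-BL-8h and 5.12% in Pcz-BL-1h. With the threshold of the Pcz-BL-8h table lowered by the ratio of its control column, 1290 genes were at 100 FPKM or more in Pcz-BL-8h and 655 in Pcz-BL-1h, against 970 and 972 in control. At 1 FPKM or more there were 29317 genes in Pcz-BL-8h and 32346 in Pcz-BL-1h, against 29808 and 29798 in control. By this count Pcz-BL-8h was close to control and Pcz-BL-1h had more genes at low level.

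Of the 54175 IDs, 10690 were listed at 0 FPKM in Pcz-BL-8h and 8209 in Pcz-BL-1h, against 10495 in control in each table, so Pcz-BL-1h stood further from control in this count. Among the genes compared there were 254 listed at 0 FPKM in Pcz-BL-8h and above 0 in Pcz-BL-1h, of which 1 carried the status HIDATA, which Cuffdiff gives to loci with too many fragments to quantify. The other 253 had a median of 1.49 FPKM in Pcz-BL-1h, and 15 of them reached 10 FPKM. In reverse, 38 genes were listed at 0 in Pcz-BL-1h and above 0 in Pcz-BL-8h, with a median of 1.15 FPKM there, and 2 of them reached 10 FPKM.

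The difference also followed the span of the locus, the distance between its ends in the tables, introns included. Some neighbouring IDs carry the same span, such as Glyma01g00410 and Glyma01g00420 at 20458 bases. A listed locus may thus hold more than 1 gene, and its span may not be that of the gene alone. Genes at loci of more than 8 kb were lower at 8 h, with a median difference of -0.55 over 4661 genes. Of them, 24.3% were at least 2-fold lower against 1.72% higher. Genes at loci of more than 1 and up to 2 kb were higher, with a median of 0.41 over 4678 genes. Of these, 22.6% were at least 2-fold higher against 10.5% lower. Medians were 0.16 up to 1 kb, 0.20 above 2 and up to 4 kb and -0.18 above 4 and up to 8 kb. Of 4513 genes tested over 8 kb, 22 passed the z test as higher and 655 as lower. Of 4317 above 1 and up to 2 kb, 326 passed as higher and 120 as lower. The median span was 2103 bases for the 896 genes called higher and 6438 bases for the 1689 called lower, against 3978 bases for all genes tested.

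This trend lay mostly in the Pcz-BL-8h table. There the median log2 fold change against control was 0.37 above 1 and up to 2 kb and -0.62 over 8 kb. In Pcz-BL-1h these medians were -0.02 and -0.09. In the tables Pcz-BL and Pcz long loci stood slightly above short ones, with 0.02 and 0.17 over 8 kb and -0.24 and -0.20 above 1 and up to 2 kb. The trend was present at every control level from 1 FPKM upward. Under 1 FPKM in control, where the limit shapes the bin and nothing is read, the median difference was -0.80 over 8 kb and -0.11 above 1 and up to 2 kb. At 1 to 10 FPKM these medians were -0.56 and 0.34, and at 10 to 100 FPKM they were -0.42 and 0.77. At 100 FPKM or more they were 0.22, over 34 genes, and 1.04.

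Span and level thus moved with the calls given above, and their part in any single gene's difference was not tested. When differences were centred on the median of their bin of span and control level, an alternative chosen after seeing the data, 506 genes passed the z test as higher and 1039 as lower. Of these, 406 were among the 896 and 876 among the 1689. Transcript length, RNA integrity and sequencing depth were not analysed here.

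**Figure D4:**
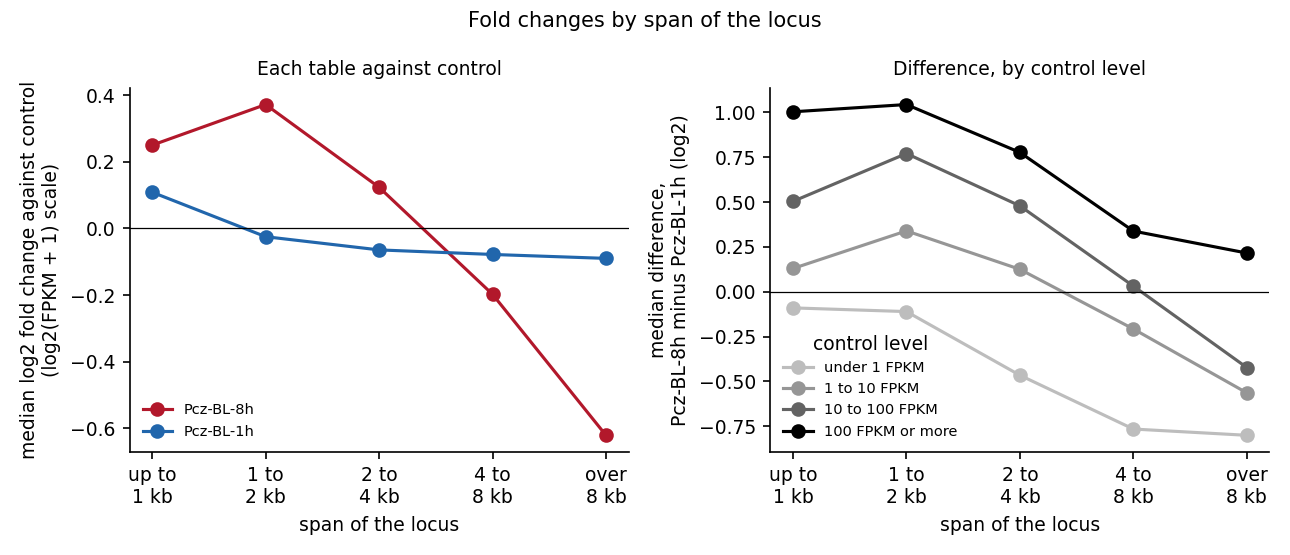
Left, median log2 fold change against control by span of the locus, red for Pcz-BL-8h and blue for Pcz-BL-1h. Right, median difference, Pcz-BL-8h minus Pcz-BL-1h, by span, 1 line per control level. On the left, the Pcz-BL-8h median is 0.37 above 1 and up to 2 kb and -0.62 over 8 kb. On the right, all 4 lines are lower over 8 kb than above 1 and up to 2 kb, and nothing is read from the line under 1 FPKM.

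By chromosome, the median differences lay close together. Of the 34518 genes, 34424 lie on the 20 chromosomes, where the median difference ran from -0.11 on chromosome 10 to 0.01 on chromosome 2. The share of tested genes called higher ran from 1.64% on chromosome 4 to 3.72% on chromosome 7, and the share called lower from 4.30% on chromosome 20 to 6.57% on chromosome 1.

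Neighbouring genes had weakly similar differences. Across 34404 pairs of adjacent genes at 1 FPKM or more, Pearson's r was 0.0966, given as a description since neighbours can share reads and are not independent. It was 0.375 over 780 pairs whose loci overlap, where fragments of 1 gene may be counted for the other. Over 7444 pairs at least 20 kb apart it was 0.0531. Overlap here is that of the listed loci, so IDs listed at 1 common locus count as overlapping. After centring within bins of span and control level r was 0.420 for overlapping pairs and 0.0593 for the distant ones.

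In 164 places 2 or more adjacent genes were called in the same direction, and in 3 of them 4 genes were. Adjacent means next to each other among the genes at 1 FPKM or more, so other genes can lie between. Of all genes tested, 2.75% were called higher and 5.18% lower, so some such places occur by chance alone. How many was not worked out, and nothing is read from the count. On chromosome 6, from 44647111 to 44673922, 4 genes were lower, with differences from -2.33 to -1.70. They stood at 3.64 to 14.1 FPKM in Pcz-BL-8h, against 15.4 to 45.0 FPKM in control, and at 17.0 to 59.1 FPKM in Pcz-BL-1h, against 18.6 to 54.1 FPKM in control. These 4 genes were thus below control at 8 h. At 1 h the treated and control ranges overlapped, which does not place each gene against its own control. Another 4 lower genes on chromosome 3, from 5612835 to 5688476, had differences from -1.79 to -1.18. They had 0.257 to 1.33 FPKM in Pcz-BL-8h, against 0.931 to 9.82 FPKM in control. In Pcz-BL-1h they had 2.36 to 8.61 FPKM, against 1.13 to 11.9 FPKM in control. The 4 higher genes on chromosome 10, from 9034095 to 9393616, had differences from 1.47 to 2.21. They stood at 2.84 to 158.9 FPKM in Pcz-BL-8h, against 0.483 to 71.7 FPKM in control. In Pcz-BL-1h they stood at 0.484 to 54.4 FPKM, against 0.587 to 87.5 FPKM in control. These ranges do not place each gene against its own control either. No loci overlap within these 3 places, but reads shared between near-identical copies cannot be told apart here.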

How the data were processed

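RNA of 15 seedling libraries, 3 in each of 5 groups, was prepared with a stranded TruSeq mRNA kit, per the labels' protocols. The authors deposited FPKM per gene from Cuffdiff, per the file headers, pooled into 1 value per group and table. Aligner, annotation and genome build: not given in the sources used here. The deposited score is Cuffdiff's test statistic, and the deposited p-value and q-value are from the same program, with 5e-05 as the smallest p. The short lists hold log2 fold changes deposited by the authors, within 2.54e-05 of the full tables. Genes were kept at 1 FPKM or more in any of the 4 columns. Each fold change's standard error was its absolute ratio to the deposited test statistic. With 1 pooled value per group, no model over libraries could be fitted. The planned 29 gene lists could not be applied, since no ID could be paired with a name (0 of 54175 against 59048 genes of assembly Glycine_max_v4.0). Genes were named by the rule for that case: the 2 highest and 2 lowest differences on the log2(FPKM + 1) scale among 1324 called genes with 10 FPKM or more in a treated column. The members, bins and lists were chosen with earlier results of these data known. The z test was run on simulated differences with independent normal errors of the size it assumes. That run cannot check the size or the independence of the real errors. Python 3.11.15, pandas 2.3.3 and scipy 1.17.1 were used.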

Additional observations from a re-analysis of the deposited data

Results flagged for a closer look

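The fold change of Pcz followed by high BL against control differed between 8 h and 1 h, by the z test of the difference at an adjusted p of 0.05, in 2585 genes. Among them, the difference of the deposited log2 fold changes was 7.28 in Glyma18g46580 and 6.34 in Glyma01g34300, both higher in Pcz-BL-8h than in Pcz-BL-1h by sheet name. It was -8.19 in Glyma15g06816 and -7.40 in Glyma02g37990, both lower in Pcz-BL-8h than in Pcz-BL-1h. Each group is 1 pooled value, so no single library could be looked at for standing apart.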

How the results depend on the processing

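No paired analysis was possible because the tables hold 1 pooled value per group, and for the same reason no library could be left out. By column header the z test called 4619 genes, the median difference was 0.033, and Glyma01g34300 (-1.47) and Glyma15g06816 (2.24) changed direction. The count of 2585 stayed between 2272 and 2584 with no filter, with 5 FPKM as the floor, centred on the median or with a 2-fold minimum added. It was 7969 with standard errors from the deposited p (3550 higher, 4419 lower), 1087 for opposite calls by the authors' test (435 above control at 8 h and below at 1 h, 652 the reverse), and 1644 centred within span bins or 1545 within span and control level bins, both chosen after seeing the data. The 1087 opposite calls stand beside 26.1% of genes with status OK called above and 31.3% below control in Pcz-BL-8h by that test. In Pcz-BL-1h these shares were 25.1% and 27.9%, and nothing is read from the count of opposite calls. Past 2-fold stood 7683 genes as reported, 12270 with 0.1 FPKM added in place of 1 and 2647 with 5 FPKM added. The median difference of -0.05 became -0.063 with 0.1 FPKM added, -0.016 with 5 FPKM added, 0 with no filter and, by construction, 0 when centred, 0.10 with 5 FPKM as the floor and -0.26 as a direct ratio. At 100 FPKM or more the median difference was 0.99 by treated level and 0.73 by control level. The alternatives for gene lists were not run, since no ID could be named. The causes of these shifts were not tested, and the depth behind the values is unknown.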
